A study of Mus musculus with 4 samples.

Results

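The genes described here move bile acids through the intestinal epithelium, or answer to them: Slc10a2, Slc51a, Slc51b, Fabp6, Fgf15, Nr1h4 and Nr0b2. They were listed by name, and each was read from a probe set annotated with its symbol alone, the one with the highest mean where there were several. Of these 7 genes, 6 had such a probe set, among 22180 genes with one. The only probe set of Slc51b is annotated with Rasl12 as well, so Slc51b has no value of its own here. Expression was measured in caecal tissue of C57Bl/6 mice, 21 weeks old, all fed a diet depleted of n-3 PUFA (polyunsaturated fatty acids). There were 4 groups: apoE knock-out (KO) mice with prebiotics (Orafti P95, 250 mg a day per mouse over the last 15 days), KO mice without, wild-type (WT) mice with the same prebiotics, and WT mice without. Each group was 1 array of RNA pooled from 6 mice chosen on RNA quality, so no value has a replicate of its own group and the spread between mice is not seen.

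For each WT array the labels conflict, since the title, source name and treatment fields give a diet and the description gives the opposite one. Values of WT arrays are therefore named by title, and every statement about prebiotics in WT mice rests on the titles. Values are RMA values on a log2 scale, a robust multi-array average of the probes of a probe set, in which a difference of 1 is a 2-fold change. The array median, taken over single-symbol probe sets, lay between 2.99 and 3.01 on the 4 arrays, and values close to it cannot be told from background with confidence. Apoe, the gene knocked out, had 3.13 and 2.83 on the KO arrays with and without prebiotics, against 4.09 and 3.90 on the WT arrays titled with and without. In bulk tissue, fewer cells of a type and less RNA per cell cannot be told apart.

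Bile acids are made from cholesterol in the liver, reach the gut lumen with bile, and are recovered mainly in the ileum. The apical sodium-dependent transporter encoded by Slc10a2 takes them into enterocytes, the ileal bile acid binding protein encoded by Fabp6 holds them in the cytosol, and the heterodimer encoded by Slc51a and Slc51b exports them across the basolateral membrane to portal blood. Inside the cell they bind the farnesoid X receptor (FXR, encoded by Nr1h4), whose known targets include Slc51a, Slc51b, Fabp6, Nr0b2 and Fgf15. Nr0b2 encodes the small heterodimer partner, a repressor without a DNA-binding domain, and Fgf15 a hormone that lowers bile acid synthesis in the liver. The caecum lies just beyond the ileum, and bacteria there ferment carbohydrates such as prebiotics.

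The promoters of Slc10a2 and Slc51a are shown because these were the members that passed the test for prebiotics. Each window runs from 250 bases before to 50 bases after the start site, from RefSeq on GRCm38.p6, and capitals mark the letters that matched 1 of 4 searched motifs. The Slc10a2 window is chr8:5105238-5105537 and the Slc51a window chr16:32487830-32488129, both on the minus strand.
Slc10a2: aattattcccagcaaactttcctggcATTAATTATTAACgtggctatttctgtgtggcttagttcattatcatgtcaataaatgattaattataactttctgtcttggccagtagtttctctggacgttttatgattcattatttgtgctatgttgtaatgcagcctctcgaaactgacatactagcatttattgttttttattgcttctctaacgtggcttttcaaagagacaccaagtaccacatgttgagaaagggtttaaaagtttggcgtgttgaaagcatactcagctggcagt
Slc51a: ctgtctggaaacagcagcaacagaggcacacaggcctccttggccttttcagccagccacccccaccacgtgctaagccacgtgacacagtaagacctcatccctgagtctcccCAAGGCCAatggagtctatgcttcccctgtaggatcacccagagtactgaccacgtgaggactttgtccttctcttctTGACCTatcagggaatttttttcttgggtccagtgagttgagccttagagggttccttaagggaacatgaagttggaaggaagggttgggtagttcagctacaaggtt

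Both strands were searched for AGGTCA, the half-site that many nuclear receptors bind, for AGGTCANTGACCT, the inverted repeat with 1 base between that FXR binds with its partner RXR, for CAAGGNCA, a site of the LRH-1 type, and for NTTAATNATTAAN, a palindrome of the HNF1 type. The letters searched were chosen after these windows had been read. That palindrome stood in the Slc10a2 window from 224 to 212 bases before the start, and 0.122% of all 32851 windows of the table held it. The Slc51a window held AGGTCA on its reverse strand from 58 to 53 bases before the start, as did 16.3% of all windows on either strand, and CAAGGNCA from 136 to 129 bases before it, as did 6.71%. None of these matches overlapped another. CAAGGNCA also matched in the Fabp6 and Nr0b2 windows and AGGTCA in those of Slc51b and Nr1h4, while Fgf15 was not in the table. The exact inverted repeat matched in 0.00913% of all windows and in none of the 6 members' windows. A match in so few windows was unlikely in advance, so its absence says little. Repeats that differ from these letters were not searched, so whether the windows hold such repeats was not tested. A match describes letters only, and no binding was measured.

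Of the members, the uptake transporter gene Slc10a2 showed the widest difference with prebiotics. Slc10a2 had a log2 value of 8.03 on the KO prebiotic array and 5.34 on the KO array without, against 7.84 and 5.21 on the WT arrays titled with and without. Both arrays titled with prebiotics lay above both without, with no overlap, as for 25.5% of all genes tested. The difference was 2.68 in KO mice, a 6.42-fold higher value, and 2.62 in WT mice by title, 6.17-fold.

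Over both genotypes Slc10a2 rose with prebiotics by 2.65 on the log2 scale (SE 0.11, 95% interval 2.40 to 2.91, limma adjusted p = 2.3e-05). It held rank 2 among 13083 genes tested, ordered by this difference. Here limma fits genotype and prebiotic over the 4 arrays. The 1 residual degree of freedom is the difference between the KO and WT prebiotic differences. Each gene's variance is drawn toward a trend over all tested genes, and the SE and interval rest on it. P-values carry a Benjamini-Hochberg adjustment over every tested gene, and the call threshold is an adjusted p of 0.05. An exact permutation test of 2 arrays against 2 cannot go below p = 0.33. With the WT pair exchanged, as the descriptions have it, the difference over both genotypes was 0.029 (SE 1.17, limma adjusted p = 1), since the WT pair then runs the other way. The KO difference of 2.68 does not involve the contested labels.

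**Figure D1:**
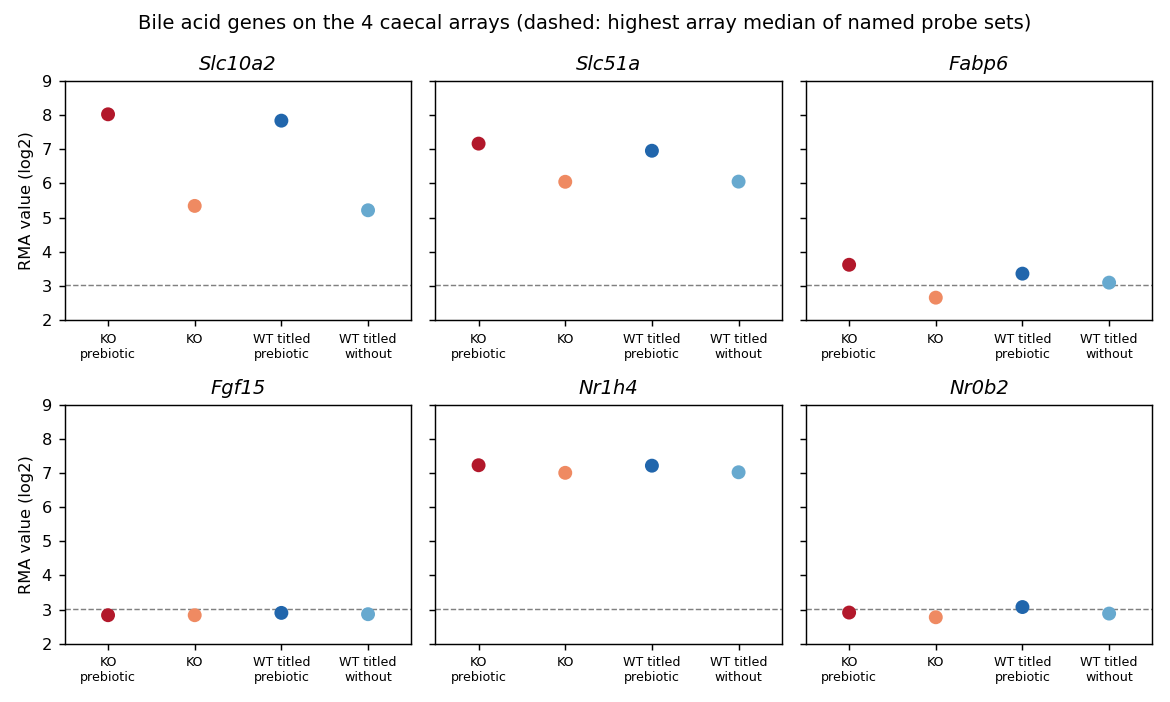
Log2 RMA values (vertical axes) of the 6 bile acid genes with a probe set of their own on the 4 arrays (horizontal axes), with 1 point per array and no error bars because each group is 1 pooled array. Slc10a2 and Slc51a sit higher on both arrays titled with prebiotics, Nr1h4 lies between 7.01 and 7.23 throughout, and Fabp6, Fgf15 and Nr0b2 lie near the dashed line, the highest array median of probe sets with 1 symbol (3.01).

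Slc51a, the gene of a subunit of the basolateral exporter, differed in the same direction with a smaller size. Among other exporter genes described below, Abcc4 differed the other way by title and Abcc3 was not called. Slc51a had 7.17 on the KO prebiotic array and 6.05 on the KO array without, against 6.96 and 6.05 on the WT arrays titled with and without prebiotics. Both arrays titled with prebiotics were again above both others, as for 25.5% of all genes tested, and the values without prebiotics were nearly equal. The difference was 1.12 in KO mice (2.17-fold) and 0.90 in WT mice by title (1.87-fold), so the WT pair stayed short of 2-fold. Over both genotypes Slc51a rose by 1.01 (SE 0.12, 95% interval 0.74 to 1.28, limma adjusted p = 0.0056), at rank 35 of 13083. With the WT pair exchanged it was 0.11 (SE 0.47, limma adjusted p = 1). Of its partner subunit Slc51b nothing can be said alone.

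Binding in the cytosol was measured only near background. Fabp6 had 3.62 on the KO prebiotic array and 2.66 on the KO array without, against 3.36 and 3.10 on the WT arrays titled with and without prebiotics. The KO array without prebiotics lay below the array median and the other 3 only slightly above it. The difference was 0.96 in KO mice and 0.26 in WT mice by title, and over both genotypes 0.61 (SE 0.18, 95% interval 0.22 to 1.01, limma adjusted p = 0.14), which did not pass. The sizes are not well determined at such values.

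The receptor was measured clearly and differed little. Nr1h4 had 7.23 and 7.01 on the KO arrays with and without prebiotics, against 7.22 and 7.02 on the WT arrays titled with and without. Both arrays titled with prebiotics were above both without, as for 25.5% of all genes tested, by 0.22 in KO mice and 0.19 in WT mice. The estimate of 0.21 (SE 0.11, 95% interval -0.032 to 0.45, limma adjusted p = 0.44) was not called, and its interval lies below that of Slc51a.

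The other FXR targets gave little signal. Nr0b2 had 2.91 and 2.78 on the KO arrays with and without prebiotics, against 3.07 and 2.88 on the WT arrays titled with and without. It reached the array median on 1 array, the WT array titled with prebiotics, and entered the test through that array alone. Its difference of 0.16 (SE 0.13, limma adjusted p = 0.65) was not called. Fgf15 had 2.84 and 2.84 on the KO arrays, against 2.90 and 2.87 on the WT arrays titled with and without prebiotics, below the median on each, and was not tested. A second Fgf15 probe set had 2.73 and 2.92 on the KO arrays with and without prebiotics, against 2.70 and 2.80 on the WT arrays titled with and without. Neither gene stood well above the array median on any array, and a fall would not be detectable at this signal.

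Of the 7 genes, 5 were thus tested, and 2 of these were called higher with prebiotics and 0 lower, beside 0.994% of all genes tested called higher and 0.26% called lower. At 2-fold or more, Slc10a2 and Slc51a were higher in the KO pair, where 0.475% of genes were, and Slc10a2 in the WT pair by title, where 0.335% were. With the WT pair exchanged 0 of the 5 were called, as was 0% of all genes tested. In limma 0 genes then passed, and 170 had an unadjusted p under 0.05. Each of the 5 tested members was higher on both arrays titled with prebiotics than on both without, as were 25.5% of all genes tested, and Nr0b2 was tested only through its highest array. The members were chosen with results of these data known.

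**Figure D2:**
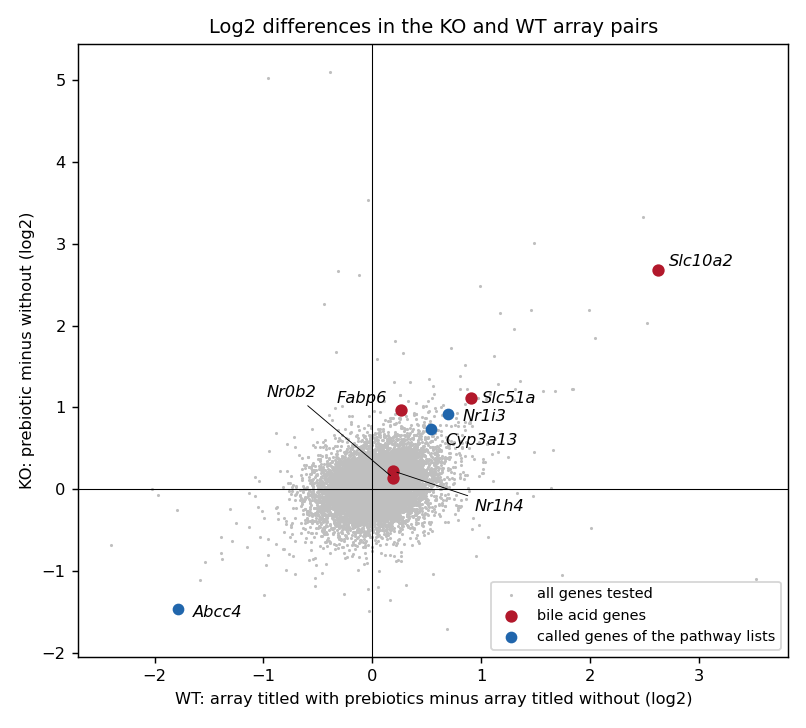
Log2 difference between the arrays with and without prebiotics in KO mice (vertical axis) and in WT mice by title (horizontal axis), with a grey point for each of 13083 genes, red for the tested bile acid genes and blue for called genes of the related pathway lists. Slc10a2 lies far out in both pairs (2.68 and 2.62) and Abcc4 far out on the opposite side (-1.47 and -1.78), while Nr1h4 and Nr0b2 lie within the cloud.

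The size of the prebiotic difference was compared between genotypes as values only, because no residual degree of freedom is left for a test. KO minus WT by title, the difference of the log2 differences was 0.058 for Slc10a2, 0.21 for Slc51a, 0.029 for Nr1h4 and -0.054 for Nr0b2. The SD of this quantity over all genes tested was 0.32, larger than each of these. Fabp6 had 0.70, from a KO minus WT value of 0.26 with prebiotics and a KO minus WT value of -0.44 without. With the WT pair exchanged the quantity was 5.31 for Slc10a2, 2.02 for Slc51a, 1.23 for Fabp6, 0.42 for Nr1h4 and 0.33 for Nr0b2, beside an SD over all genes tested of 0.44, so the small values for Slc10a2 and Slc51a rest on the titles.

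Genotype itself moved none of these genes past the test. Apoe, the gene knocked out, was not called either in the fit without a diet block (-1.02, limma adjusted p = 0.78). With diet as a block by title Apoe was called (limma adjusted p = 0.036). The absence of a genotype call therefore does not show the absence of a difference. Slc10a2 averaged 6.68 on the KO arrays and 6.53 on the WT arrays, which differed by 0.16 on the log2 scale (SE 0.998, limma adjusted p = 0.999) in a fit whose error holds the diet difference. With diet as a block by title the same 0.16 had an SE of 0.11 (95% interval -0.10 to 0.41, limma adjusted p = 0.84). Between arrays of the same titled diet, KO minus WT was 0.19 with prebiotics and 0.13 without, each below the SD of that difference over all genes tested, 0.24 in both cases. The order of the 4 Slc10a2 values was therefore KO prebiotic, WT titled prebiotic, KO without and WT titled without, with neighbours of the same diet apart by less than that SD.

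For the other tested members KO minus WT was 0.10 for Slc51a, -0.090 for Fabp6, -0.13 for Nr0b2 and -0.0017 for Nr1h4, with an adjusted p of 0.999 in limma for each. With diet as a block the 95% interval was -0.17 to 0.37 for Slc51a and -0.24 to 0.24 for Nr1h4. Without a diet block, limma called 0% of all genes tested for genotype, Apoe being among those not called, and 430 had an unadjusted p under 0.05. None of the 5 tested members had both KO arrays above both WT arrays, or both below, as 16.2% and 14% of all genes tested had. The genotype values without a diet block hold whichever WT label is right.

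Around these genes, 6 lists of the wider bile acid pathway held 53 genes, of which 47 had a value and 30 passed the filter on low values. Of these 30, 2 were called higher with prebiotics over both genotypes and 1 lower, all by title. Among all genes tested 0.994% were called higher and 0.26% lower. Among 10 other bile acid transporters, 3 were tested and 1 fell. This was Abcc4, which exports bile acids and other organic anions from cells: it had 4.37 and 5.84 on the KO arrays with and without prebiotics, against 4.40 and 6.18 on the WT arrays titled with and without. Both arrays titled with prebiotics lay below both others, as for 17.4% of all genes tested. The estimate was -1.62 (SE 0.14, limma adjusted p = 0.0011), rank 1 from the low end of 13083 genes, and 0.16 with the WT pair exchanged.

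Abcc3, a basolateral exporter of conjugated anions, had 10.1 and 9.99 on the KO arrays with and without prebiotics, against 9.98 and 9.92 on the WT arrays titled with and without. Its estimate of 0.10 (SE 0.06, limma adjusted p = 0.54) was not called. Abcc2, an apical exporter, had 3.46 on the KO prebiotic array and between 2.79 and 3.005 on the other 3, near background. It entered the test through the KO prebiotic array alone, its highest. The hepatocyte transporters Slc10a1 and Abcb11 stayed under the array median on all 4 arrays. The estimates of the 3 tested transporters were -1.62 for Abcc4, 0.10 for Abcc3 and 0.35 for Abcc2. Their median of 0.10, beside 0.02 for all genes tested, thus depends on Abcc2 having passed the filter.

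Among 9 receptors and their partners, 8 were tested and 1 was called higher, beside 0.994% of all genes tested. Nr1i3, the constitutive androstane receptor that controls detoxification genes, had 3.94 and 3.02 on the KO arrays with and without prebiotics, against 4.004 and 3.31 on the WT arrays titled with and without. Its estimate of 0.81 (SE 0.14, limma adjusted p = 0.029) came from low values and was not called without the filter (limma adjusted p = 0.057) or without the variance trend (0.076), with adjusted p between 0.021 and 0.076 over 4 alternatives that kept the titles. Rxra, the partner of FXR, had an estimate of 0.30 (SE 0.11, limma adjusted p = 0.27), and Vdr, which also binds the bile acid lithocholate, 0.18 (SE 0.08, limma adjusted p = 0.36). The estimate was 0.16 for Gpbar1, the membrane receptor for bile acids, and 0.14 for Nr5a2, which encodes LRH-1, and neither was called. Gpbar1 passed the filter only through the 2 arrays titled with prebiotics, so its direction was set by the filter. The list's median, Gpbar1 included, was 0.15.

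**Figure D3:**
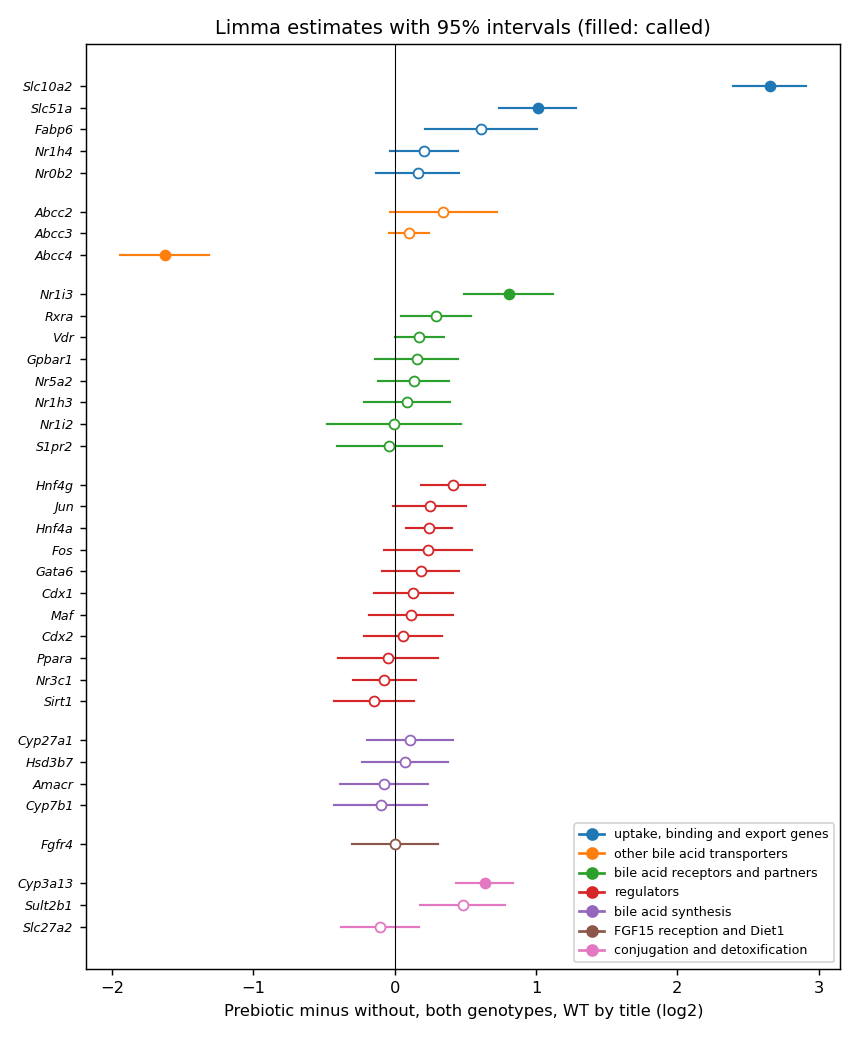
Limma estimate of the log2 difference between arrays titled with and without prebiotics over both genotypes (horizontal axis) for each tested gene of the pathway (rows, coloured by list), with bars for 95% intervals and filled points for genes called at an adjusted p under 0.05. Slc10a2, Slc51a, Nr1i3 and Cyp3a13 are filled to the right of 0 and Abcc4 to the left.

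Among 15 regulators of Slc10a2 or of regional gut identity, 12 had a value, 11 were tested and 0 were called in limma in either direction, with a median of 0.13. The hepatocyte nuclear factors Hnf4g and Hnf4a, which drive enterocyte genes, had estimates of 0.41 (SE 0.10, limma adjusted p = 0.097) and 0.24 (SE 0.07, limma adjusted p = 0.16). Cdx2, a factor of intestinal identity, had 0.06, and Nr3c1, the glucocorticoid receptor, -0.07. Gata4, which restrains Slc10a2 in the proximal small intestine of mice, lay under the array median on each array.

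Of 8 genes of conjugation and detoxification, 3 were tested and 1 was called higher, beside 0.994% of all genes tested. Cyp3a13, a cytochrome P450 of the intestine, had 9.02 and 8.28 on the KO arrays with and without prebiotics, against 8.73 and 8.19 on the WT arrays titled with and without. Its estimate was 0.64 (SE 0.09, limma adjusted p = 0.012), with adjusted p between 0.0098 and 0.14 over 5 alternatives that kept the titles, the highest without the variance trend, where it was not called. Sult2b1, a sulfotransferase of sterols, had 0.48 (SE 0.13, limma adjusted p = 0.14). Of 8 genes of bile acid synthesis, 4 were tested and 0 called in limma, with a median of -0.0011 and estimates from -0.10 to 0.11. The lowest was that of Cyp7b1, which passed the filter only through its highest array, the WT array titled without prebiotics. The median depends on its having passed. Cyp7a1 and Cyp8b1, enzymes of the liver pathway, lay under the median on all arrays. Fgfr4, the receptor through which Fgf15 acts on the liver, had an estimate of 0.0031 and was not called.

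Genes with the pattern nearest to a member's were sought for the 3 members at or above the array median on all 4 arrays, by the root mean square distance of log2 values centred on each gene's own mean. Over the 4 arrays and 12021 genes compared, the nearest to Slc10a2 were Slc3a1, a subunit of the transporter for cystine and basic amino acids (distance 0.24), the gut peptide gene Nts (0.29), the butyrate transporter gene Slc5a8 (0.36), the antimicrobial lectin gene Reg3b (0.43) and Mal (0.54). Slc3a1 had 8.06 and 6.03 on the KO arrays with and without prebiotics, against 8.01 and 5.49 on the WT arrays titled with and without. It is also among the enterocyte markers. Nts differed by 2.19 in KO mice and 1.99 in WT mice by title, Slc5a8 by 1.84 and 2.04, and Reg3b by 3.33 and 2.48. Only Slc3a1 lay within 0.25 of Slc10a2, whereas 123 genes lay within that distance of Slc51a. Nearest to Slc51a were Ereg (0.056), the phosphate transporter gene Slc34a2 (0.060), Cyp4f14 (0.089), Gdpd2 (0.094) and Fads3 (0.11).

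For Nr1h4, 10779 genes lay within 0.25, so that its nearest genes, Cmtm5, Proser1, Aga, Snx8 and Asb1, are 5 among many with small differences. Among the members themselves, Nr1h4 and Nr0b2 lay nearest, 0.073 apart. Fabp6 lay 0.25 from Slc51a, 0.27 from Nr1h4 and 0.29 from Nr0b2, and Slc10a2 and Slc51a lay 0.82 apart.

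**Figure D4:**
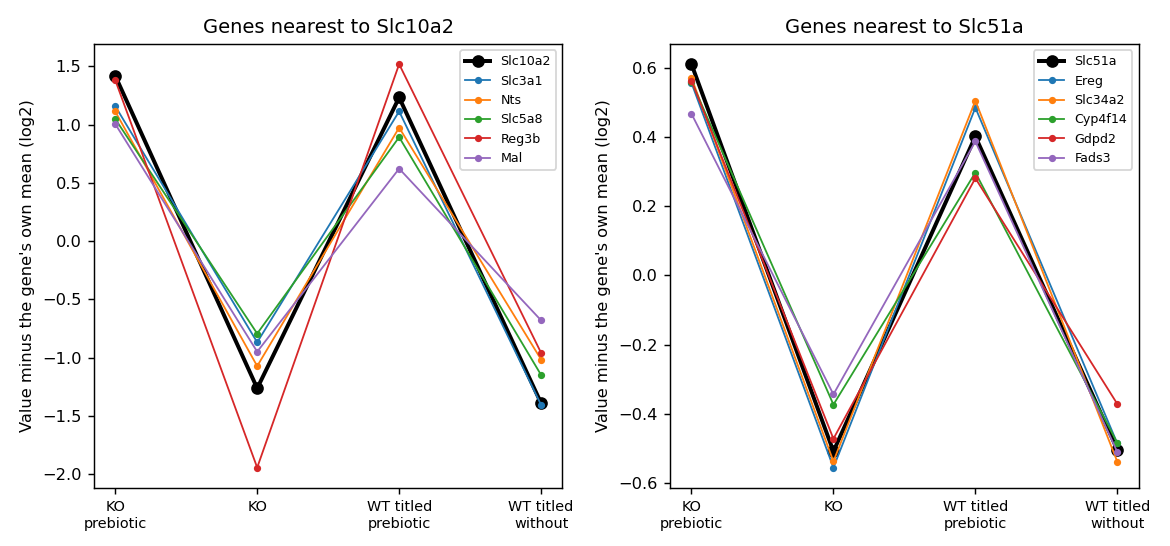
Log2 values minus each gene's own mean over the 4 arrays (vertical axes) on each array (horizontal axes), with a line joining the values of 1 gene: Slc10a2 with its 5 nearest genes (left) and Slc51a with its own (right). Both members are high on the arrays titled with prebiotics, and the vertical range is wider on the left.

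Markers of other cells of the gut wall were read beside Slc10a2. Of 22 genes of small intestinal enterocytes, 21 had a value. Their mean log2 value was 5.61 and 4.80 on the KO arrays with and without prebiotics, against 5.29 and 4.94 on the WT arrays titled with and without. Of 19 tested, 18 were higher with prebiotics in the KO pair and 14 in the WT pair by title. Over both genotypes 16 had an estimate above 0, as had 55.1% of all genes tested. Slc15a1 and Slc6a19 passed the filter only through the 2 arrays titled with prebiotics, so their direction was set by the filter. Over both genotypes 4 were called higher, where 0.994% of all genes tested were: Slc3a1, the alkaline phosphatase Alpi, and the peptidases Enpep and Anpep. The sugar-digesting enzyme Lct, a marker of the small intestine, lay under the array median on each array, and Sis had 4.61 on the KO prebiotic array, 2.79 on the KO array without, and 3.23 and 3.03 on the WT arrays titled with and without. The part of these cells in the Slc10a2 and Slc51a results was not tested.

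Paneth cell markers, of which 8 of 9 had a value, had a mean of 5.41 on the KO prebiotic array, 3.55 on the KO array without, and 3.45 and 3.61 on the WT arrays titled with and without prebiotics. The list was mixed. Of 7 tested, 4 were 2-fold or more higher with prebiotics in the KO pair, where 0.475% of genes were. These were the defensins Defa21, Defa22 and Defa24 and the lysozyme Lyz1, Defa24 having passed the filter through the KO prebiotic array alone. Ang4, an angiogenin with antimicrobial activity, had 5.71 and 7.42 on the KO arrays with and without prebiotics, against 6.84 and 6.16 on the WT arrays titled with and without, a log2 difference of -1.71 in KO mice and 0.68 in WT mice by title. Their part in the Slc10a2 result was not tested. Markers of caecal and colonic epithelium, 12 of 13 with a value, averaged 9.14 and 8.78 on the KO arrays with and without prebiotics, against 9.09 and 8.71 on the WT arrays titled with and without, so the markers of the labelled tissue were present. Of 11 tested, 5 were called higher, where 0.994% of all genes tested were, among them Tmigd1 (1.22) and the chloride exchanger Slc26a3 (0.58). General epithelial markers averaged 9.77 and 9.70 on the KO arrays with and without prebiotics, against 9.77 and 9.79 on the WT arrays titled with and without, with 0 of 10 called in limma.

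Smooth muscle markers averaged 8.68 and 8.89 on the KO arrays with and without prebiotics, against 8.22 and 8.601 on the WT arrays titled with and without. Of 8 tested, 3 were called lower, where 0.26% of all genes tested were: Myh11, Myl9 and Synpo2. Hepatocyte markers averaged between 3.63 and 3.84 on the 4 arrays, with 0 of 4 tested called in limma. The list was uneven: Ttr had from 8.30 to 8.75, while Serpina1a, Fgb, F2 and Ahsg lay under the array median on each array. The part of these marker differences in the results above was not tested.

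**Figure D5:**
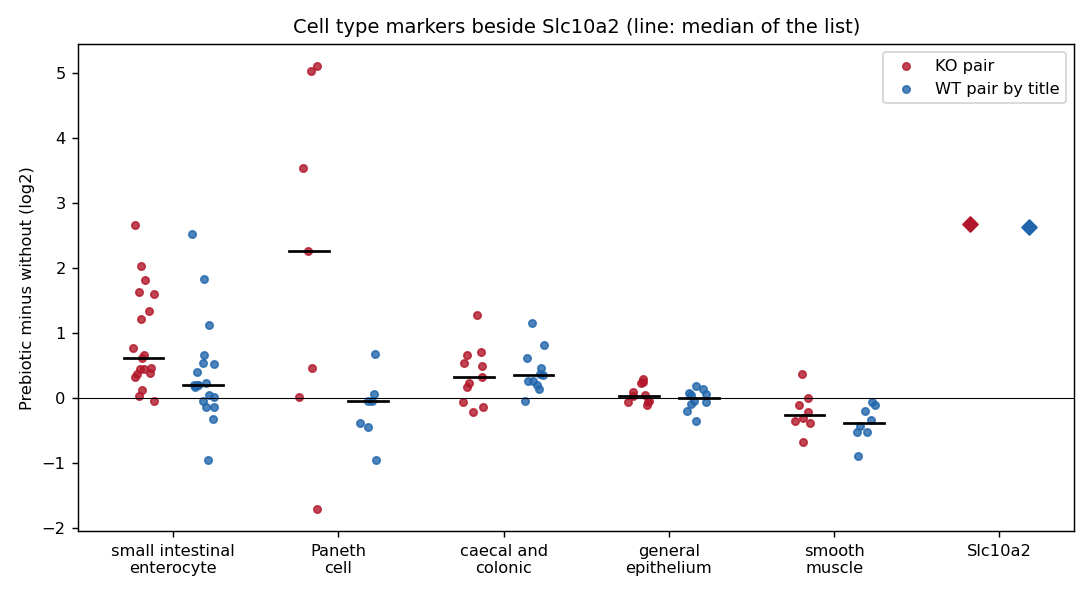
Log2 difference between arrays with and without prebiotics (vertical axis) for each tested marker of 5 cell types and for Slc10a2 (horizontal axis), red for the KO pair and blue for the WT pair by title, with a line at each list's median. Slc10a2 (2.68 and 2.62) lies above all tested general epithelial and smooth muscle markers in both pairs. In the KO pair Defa21 (5.10), Defa22 (5.03) and Defa24 (3.54) lie above it and the enterocyte marker Naaladl1 (2.67) close below. In the WT pair the enterocyte marker Slc3a1 (2.52) lies close below. Of 7 Paneth markers 4 were 2-fold or more higher and 1 lower in the KO pair, beside 0.475% and 0.139% of genes, with 0 past 2-fold in the WT pair.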

How the data were processed

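Caecal RNA of 4 groups was measured on 1 Affymetrix array each. Per the submitters' processing notes, the deposited log2 values were made by the authors with Affymetrix Expression Console and RMA, and versions, settings and genome build were not given in the sources used here. The log2 base was taken from RMA and the range of the values. RMA compresses differences near background.

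Of 41345 probe sets, 23521 have 1 symbol, 1814 several and 16010 none. The probe set with the highest mean stood for its gene. A gene was tested if it reached the median of single-symbol probe sets on at least 1 array, which left 13083 genes. RefSeq (GRCm38.p6) held 99.2% of the gene identifiers and changed 0 symbols.

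Tests used limma 3.58.1 in R 4.3.3 (lmFit, eBayes with trend, two-sided, Benjamini-Hochberg over all tested genes) and were tested on simulated data. Pairs of single arrays have no test. For prebiotics the residual is the difference between the KO and WT prebiotic differences. For genotype without a diet block the residual holds the diet difference. In both fits each gene's variance is drawn toward a trend over all tested genes. The p-values do not measure the spread between mice, and the number of arrays limits precision. Members, lists and the rules for naming genes were chosen with earlier results of these data known: the members, Apoe, any gene of 6 pathway lists and of 6 marker lists, and the 5 genes nearest in pattern. Alternatives were other filters (none, 75th percentile), the mean over probe sets, cyclic loess, no trend, diet as a block, the WT pair exchanged and each array left out.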

Additional observations from a re-analysis of the deposited data

Results flagged for a closer look

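In 9 of the 30 tested genes of the pathway lists, the difference with prebiotics had opposite signs in the KO pair and the WT pair by title, as it had in 40.6% of all genes tested. With 1 array per group this difference was not tested, and with the WT pair exchanged both pairs run the same way. The widest was that of Nr1i2, the pregnane X receptor, with 0.54 in KO mice and -0.55 in WT mice, a difference of 1.09 on the log2 scale. S1pr2, a receptor that conjugated bile acids can activate, differed by 0.59, Slc27a2 by 0.53, Ppara by 0.48 and Fos by 0.48. Cyp7b1, which passed the filter on 1 array only, the WT array titled without prebiotics, differed by 0.40, Cdx2 by 0.40 and Amacr by 0.18. Fgfr4 had -0.014, from -0.0038 in KO mice and 0.010 in WT mice. None of the 5 members that passed the filter was among them.

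The probe set annotated with both Slc51b and Rasl12, which no comparison used, had 8.95 and 8.83 on the KO arrays with and without prebiotics, against 8.77 and 8.90 on the WT arrays titled with and without. It was 0.12 higher with prebiotics in KO mice and had -0.12 in WT mice by title. Which of the 2 genes gives the signal is not known.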

How the results depend on the processing

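Of the alternatives, the exchange of the WT pair ended the prebiotic calls: 0 genes were higher, 0 lower and 0 members called, with 0.029 for Slc10a2 and 0.11 for Slc51a, and the sign turned for Nr0b2 (-0.027) and Abcc4 (0.16). Slc10a2, Slc51a and Abcc4 were called under each of the 5 alternatives that kept the titles and all 4 arrays. Adjusted p for these lay between 1.1e-05 and 0.0011 for Slc10a2, between 0.0040 and 0.044 for Slc51a and between 0.00058 and 0.011 for Abcc4. Without the filter 68 genes were called higher and 17 lower, and without the trend 21 and 4, against 130 and 34. For genotype, diet as a block by title called 8 genes higher and 4 lower, with 0 of the members, and with the WT pair exchanged that block called 0 higher and 0 lower. Leaving out 1 array gave between 0 and 4 genes called higher for genotype, with the KO array kept without prebiotics left out for the 4. A fit that leaves out 1 array is unbalanced in diet, and KO minus WT then ranged from -1.18 to 1.498 for Slc10a2, -0.46 to 0.66 for Slc51a, -0.57 to 0.39 for Fabp6 and -0.11 to 0.11 for Nr1h4, not called in any. For prebiotics, leaving out 1 array leaves the difference of the other genotype's pair, with no test. Fabp6, Nr0b2 and Fgf15 are limited by signal near background.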
